A study of Mus musculus with 16 samples.

Results

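Responses to progesterone (P4) were compared between the uteri of 2 mouse strains, one that overexpresses receptor isoform A (ePRAoe) and one that overexpresses isoform B (ePRBoe). The quantity described for each gene is the difference of the P4 responses, which is the log2 change from oil to P4 in ePRBoe minus the same change in ePRAoe. A positive value means that the gene went further up, or less far down, with P4 in ePRBoe. It was computed for every feature with a mean of at least 1 FPKM (fragments per kilobase of transcript, scaled to library depth) over all 16 libraries. That held for 15408 of the 31274 features in the table, with means of 1.00092 just inside the limit and 0.999645 just outside.

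Both isoforms of the progesterone receptor come from the single gene Pgr, and isoform A lacks the amino-terminal stretch that isoform B has. The receptor is a transcription factor that binds DNA and changes the activity of target genes once P4 is bound. In the uterus P4 acts on epithelium, stroma and muscle: it restrains estrogen-driven growth of the epithelium, prepares the tissue for implantation through paracrine signals such as Indian hedgehog, and quiets contraction.

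The mice carried a Pgr-Cre driver together with a transgene that Cre switches on, written PgrALsL/+ in ePRAoe and PgrBLsL/+ in ePRBoe, so that the transgene was active where the Pgr promoter drives Cre. All were ovariectomized for 2 weeks, which removes the main source of ovarian hormones, and whole uteri were taken 6 h after oil or P4. Biological replicates number 4 in every group per the labels (ePRAoe oil, ePRAoe P4, ePRBoe oil and ePRBoe P4), and an age of 8 weeks is given. A group without a transgene was not analysed here, so each strain is set against its own oil group and against the other strain. Every library of ePRAoe carries a position in row A and every library of ePRBoe one in row B, with oil before P4 in each row, so position cannot be told apart from strain or treatment. One label field speaks of mating and day 4 of pregnancy, in conflict with the titles and the design text, which were followed.

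Total FPKM ran from 499748 to 595748 per library, and all P4 libraries lay above all oil libraries. Epcam, Vim, Myh11 and Pecam1, markers of epithelium, stroma, smooth muscle and vessels, were measured in every library at levels from 28.8 FPKM upward. Pgr itself read 66.7, 67.3, 56.8 and 68.9 FPKM in ePRAoe oil, 72.1, 76.4, 73.2 and 73.7 in ePRAoe P4, 87.6, 79.9, 79.5 and 87.3 in ePRBoe oil, and 121, 122, 78.5 and 126 in ePRBoe P4. Both ePRBoe groups therefore lay above both ePRAoe groups, and these values sum over isoforms and over transgene and endogenous transcripts. Isoform cannot be told apart here from the level of Pgr RNA or from other traits of the strains. The difference of the P4 responses for Pgr was 0.21 (SE 0.17, limma, adjusted p = 0.583), and 0.37 (adjusted p = 0.0332, past the threshold) without ePRBoe P4 replicate 3, the low library. ePRBoe P4 replicate 3 stood apart from its group: the SD of its deviations from the group mean was 0.359 on the log2 scale, against 0.249 to 0.310 in the other libraries. Ptprc, the pan-leukocyte marker, read 9.71 FPKM there and 4.22 to 4.42 in the other libraries of that group. Without that library 36 of the 352 calls described below were lost, and none of the 352 differences changed sign or moved by over 1.5 times.

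P4 changed the larger part of the transcriptome in both strains (69.8% of features called in ePRAoe and 69.1% in ePRBoe), whereas the size of the response differed between the strains for 352 features, or 2.28%. Here and below, rises, falls and calls all mean that limma's p-value, adjusted by the Benjamini-Hochberg method over all 15408 features, was under 0.05. Of the called features, 227 (1.47%) had a higher response in ePRBoe and 125 (0.811%) a lower one. The difference was at least 1 on the log2 scale in 61 of the former and 29 of the latter, and its median absolute size was 0.69. Over all features tested the median difference was 0.01, and 51.6% of the features lay above 0. At an unadjusted p under 0.05, 2538 features (16.5%) would pass. In whole uterus, fewer cells of a type and less RNA per cell cannot be told apart. The count of calls rested on single libraries: it ran from 155 without ePRAoe P4 replicate 4 to 508 without ePRBoe P4 replicate 3, and 135 features (110 higher and 25 lower) were called in every fit that left out 1 library.

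Among the called features the commonest pattern was a response shared by both strains that went further in ePRBoe. Of all features tested, 69.8% were called in ePRAoe and 69.1% in ePRBoe, so responses in both strains were common in any case. The patterns were counted among the called features only. Among the 227 features with a higher response, 119 rose in both strains, with a median rise of 0.90 in ePRAoe and 1.64 in ePRBoe. A further 47 were called in ePRBoe alone and 19 in ePRAoe alone, and 23 fell in both strains but less far in ePRBoe. In the remaining 19 the called responses had opposite signs. Among the 125 features with a lower response, 34 fell in both strains and further in ePRBoe (median -0.62 and -1.35). Of the others, 38 were called in ePRBoe alone, 23 in ePRAoe alone, 13 rose in both but less far in ePRBoe, and 17 had called responses of opposite sign. Whether a response was called in 1 strain or in both is a description, since the test is on the difference itself.

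**Figure D1:**
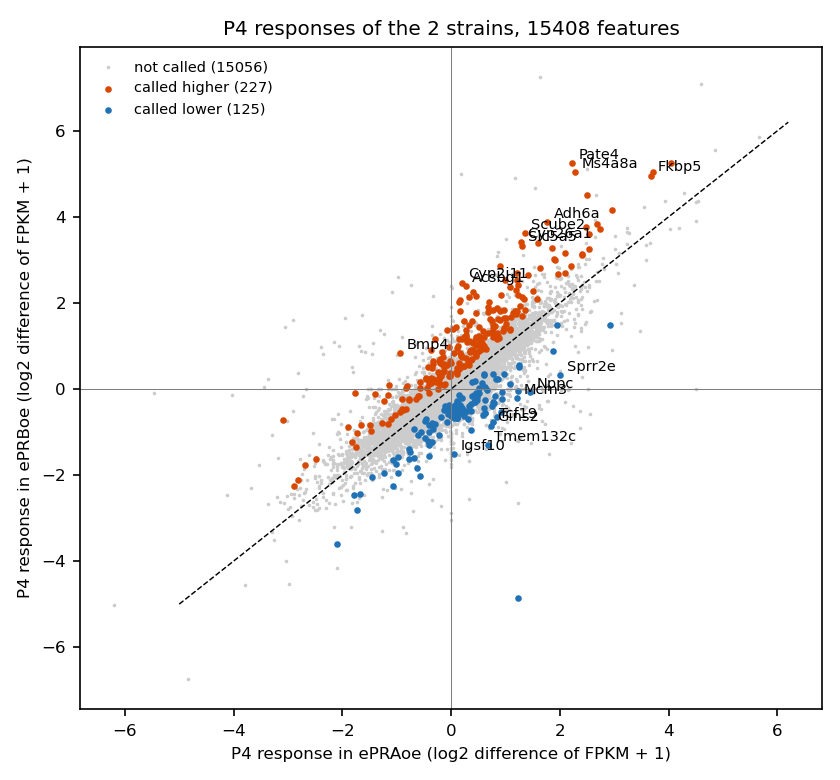
Each point is 1 of the 15408 features tested, with its P4 response in ePRAoe on the x axis and in ePRBoe on the y axis (log2 difference of FPKM + 1 between P4 and oil, 4 libraries a group). Features whose responses differed (adjusted p under 0.05) are coloured, 227 above the dashed line of equal responses and 125 below it. The lowest blue point is the small nucleolar RNA Snord53, which was counted but not described further.

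Few of these features passed the test between the strains with oil. With oil, 18 features (0.117%) differed between the strains, and 4 of the 352 were among them. With P4, 2471 features (16%) differed, and 342 of the 352 were among them. In 339 of the 352 the strains lay further apart with P4 than with oil, and in 13 they lay further apart with oil. These counts follow in part from the calls. The difference of the responses equals the strain difference with P4 minus that with oil. The like share over all features was not computed. The P4 libraries of the strains did not overlap for 340 of the 352 features (96.6%), against 20.2% of all features tested, a comparison that uses the same libraries as the calls. Features that did not pass the test with oil are not thereby shown to be equal.

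Leaving aside clones, predicted genes and small RNAs, the largest positive differences belonged to genes with little or no RNA in oil. Pate4, a small secreted protein of the PATE family (chr9:35607093-35611885, mm10), read 0.0697, 0.0173, 0.0824 and 0.0874 FPKM in ePRAoe oil, 0, 0.0575, 0.0816 and 0.107 in ePRBoe oil, 2.78, 4.20, 8.16 and 2.45 in ePRAoe P4, and 29.4, 58.5, 36.6 and 38.8 in ePRBoe P4. The P4 groups did not overlap, and the lowest ePRBoe P4 library exceeded the highest ePRAoe P4 library by a wide margin. The difference of the responses was 3.03 (SE 0.35, limma, adjusted p = 0.000644). Ms4a8a, a membrane-spanning protein of the MS4A family, came next at 2.77 (SE 0.46, adjusted p = 0.00771). Its levels were 8.30, 9.68, 5.40 and 6.25 FPKM in ePRAoe P4 and 39.8, 45.6, 125 and 30.1 in ePRBoe P4, after 0.249 to 1.06 in all oil libraries. ePRBoe P4 replicate 3 was the highest of its group, and the difference without it was 2.34 (adjusted p = 0.000582).

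Genes of secreted signals and their modifiers were called in both directions, among them Areg, Scube2 and Bmp4 higher and Wnt16 and Nppc lower. Areg, the EGF-family ligand amphiregulin and a known P4 target of the uterine epithelium, was under 0.1 FPKM in every oil library. It reached 5.38, 5.81, 6.17 and 3.05 FPKM in ePRAoe P4 and 16.4, 34.8, 15.7 and 29.0 in ePRBoe P4. No ePRAoe P4 value reached the lowest ePRBoe P4 value, and the difference of the responses was 2.00 (SE 0.32, limma, adjusted p = 0.00531). It was the only called gene of the 11 tested in the EGF family list, against 2.28% of all features. The receptor Egfr had -0.38 (limma, adjusted p = 0.377) and Erbb2 0.09 (adjusted p = 0.816).

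Scube2, a secreted protein that helps release lipid-modified hedgehog ligands from the cell, read 13.2, 14.7, 10.3 and 10.98 FPKM in ePRAoe P4 and 75.4, 54.1, 40.9 and 57.7 in ePRBoe P4, from 2.74 to 5.17 in oil. The groups with P4 were far apart and those with oil overlapped, which gave a difference of 2.26 (SE 0.25, limma, adjusted p = 0.00045). It was the single called member among 15 tested genes of hedgehog signalling, against 2.28% of all features, and the list's median was -0.05. The ligand Ihh, a P4 target of the epithelium, lay on the other side of 0 at -1.35 (SE 0.72, adjusted p = 0.379, not called). Its values scattered widely in oil: 3.26, 17.1, 4.08 and 21.1 FPKM in ePRAoe and 19.2, 7.10, 11.1 and 30.6 in ePRBoe. With P4 it read 94.4, 79.2, 81.3 and 77.8 in ePRAoe and 41.1, 70.7, 38.9 and 70.6 in ePRBoe, so that the P4 groups did not overlap although the difference of responses was not called. The receptor and target genes Ptch1 (-0.68, adjusted p = 0.284) and Gli1 (-0.45, adjusted p = 0.582) were not called either.

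Bmp4, a ligand of the bone morphogenetic protein family, moved in opposite directions. Its levels in oil were 28.7, 27.7, 28.9 and 24.9 FPKM in ePRAoe and 27.9, 28.4, 27.3 and 22.9 in ePRBoe. With P4 they were 14.2, 15.8, 14.2 and 11.9 in ePRAoe and 40.6, 48.7, 60.2 and 44.6 in ePRBoe. Bmp4 thus fell by 0.93 in ePRAoe and rose by 0.83 in ePRBoe, with every P4 library outside the range of its oil group, and the difference was 1.76 (SE 0.16, limma, adjusted p = 0.000189). Of the 27 tested members of the BMP, activin and TGF-beta list, Chrd, a secreted BMP antagonist, was also higher (0.81, adjusted p = 0.0254) and Bambi, a decoy receptor, was lower (-0.69, adjusted p = 0.0049). Over all features 1.47% were called higher and 0.811% lower. Between 1 and 3 members of the list were called higher, and 1 lower, when 1 library was left out. Chrd lost its call without any 1 of 6 libraries. The gene Chrd overlaps Thpo, which was also called higher, and whether the counting used strand is not given. Bambi rose in both strains, from 8.28 to 10.4 FPKM in ePRAoe oil to 22.4 to 23.7 with P4, and from 9.36 to 11.7 in ePRBoe oil to 14.5 to 17.1 with P4. Bmp2, a ligand of the decidual response, did not pass the test (-0.15, adjusted p = 0.622), and the list's median was -0.02.

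Retinoid metabolism held 2 called genes of 17 tested, both higher, against 1.47% of all features called higher. Cyp26a1, which breaks down retinoic acid and is a P4 target of the uterus, read 32.1, 22.2, 12.5 and 12.4 FPKM in ePRAoe P4 and 71.7, 66.5, 99.0 and 45.7 in ePRBoe P4. All ePRBoe P4 values exceeded those of ePRAoe P4, while the oil libraries (4.16 to 9.87 FPKM) overlapped. The difference was 2.13 (SE 0.45, limma, adjusted p = 0.0254), and the call held in 10 of 16 fits that each left out 1 library, with adjusted p from 0.00612 to 0.0614 over all alternatives. Without ePRBoe P4 replicate 3, which gave the value of 99.0, it was 1.96 (adjusted p = 0.0342). Rdh10, which makes retinal as the first step toward retinoic acid, fell by 0.22 in ePRAoe and rose by 0.64 in ePRBoe. Its levels with P4 were 37.2, 35.1, 30.0 and 36.8 FPKM in ePRAoe and 61.5, 63.5, 51.4 and 56.4 in ePRBoe, with no overlap, against 33.8 to 42.4 in oil. The difference was 0.86 (SE 0.11, adjusted p = 0.00141). The retinal dehydrogenases Aldh1a1 (-0.92, adjusted p = 0.647) and Aldh1a3 (-1.20, adjusted p = 0.39) were not called.

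**Figure D2:**
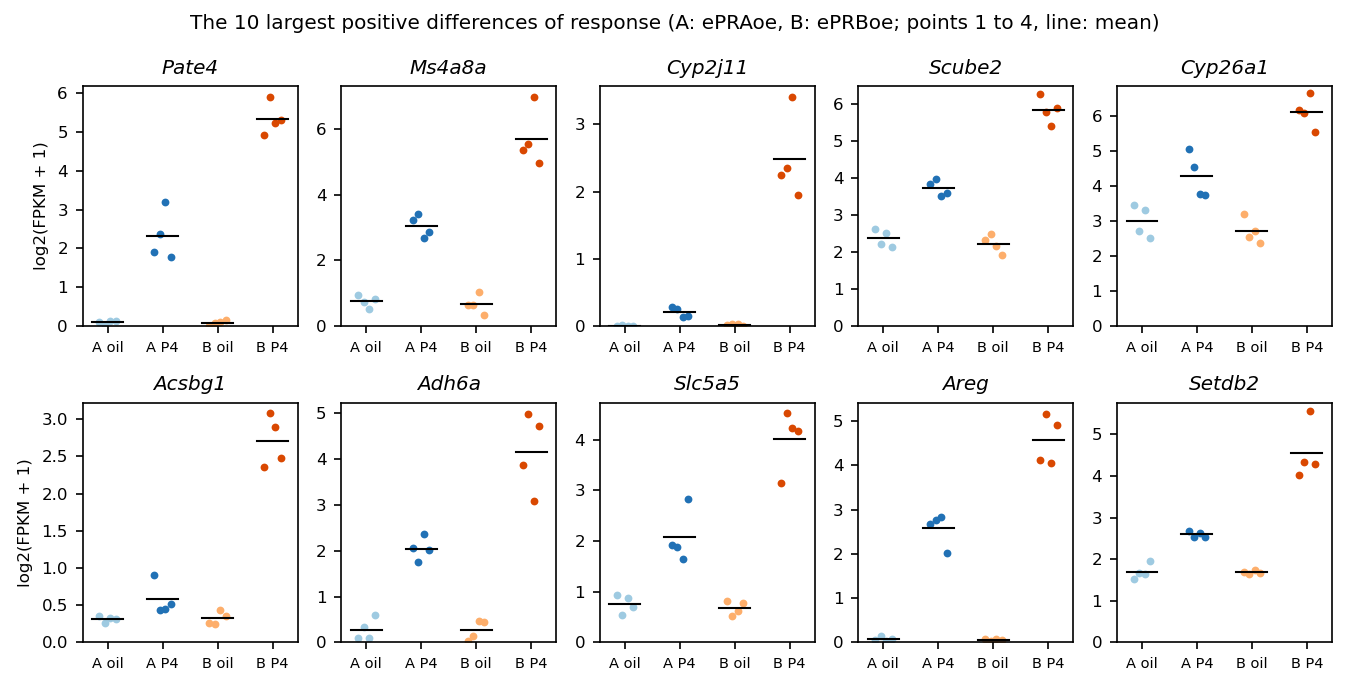
Levels on the log2(FPKM + 1) scale of the 10 genes with the largest positive difference of response (clones, predicted genes and small RNAs left out), in ePRAoe oil (A oil), ePRAoe P4 (A P4), ePRBoe oil (B oil) and ePRBoe P4 (B P4). Points are the 4 libraries of a group, replicate 1 to 4 from left to right, and lines are group means; in each panel all ePRBoe P4 libraries lie above all other libraries.

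Some of the largest differences belonged to enzymes, higher for those given next and lower for Elovl2, which is given further on. Cyp2j11, a cytochrome P450, was listed at 0 in 3 ePRAoe oil libraries and at 0.00811 FPKM in the other one, and was at most 0.0236 in ePRBoe oil. With P4 it read 0.220, 0.189, 0.0927 and 0.112 FPKM in ePRAoe and 3.75, 4.12, 9.56 and 2.86 in ePRBoe. It passed 1 FPKM in ePRBoe P4 alone, as a group mean, and 5 other called features did so too, Acsbg1 and Nr4a3 among them. Such features entered the test through that group, so their values are a description and no test is given for them. They stay in the counts of called features and in the shares taken from those counts. Further features entered through a single group when judged by the mean over the other groups, as Ugt2a2 and Elovl2 below. Such further features stay in the counts too, and their number was not determined. Acsbg1, an acyl-CoA synthetase, had 0.881, 0.353, 0.368 and 0.436 FPKM in ePRAoe P4 and 4.13, 7.46, 6.46 and 4.57 in ePRBoe P4, from group means of 0.243 and 0.252 in oil. Adh6a, an alcohol dehydrogenase, rose in both strains to 3.18, 2.34, 4.13 and 3.05 FPKM in ePRAoe and to 13.5, 30.5, 7.41 and 25.1 in ePRBoe. Its difference of 2.11 was not called without ePRAoe P4 replicate 2, ePRAoe P4 replicate 4 or ePRBoe oil replicate 1 (limma, adjusted p 0.000575 to 0.117 over all alternatives).

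Fmo5, a flavin monooxygenase, fell in ePRAoe: it went from 14.1, 9.96, 10.9 and 7.50 FPKM in oil to 3.03, 2.04, 2.72 and 1.80 with P4. In ePRBoe it read 9.83, 9.70, 10.04 and 7.46 in oil and 8.05, 13.6, 6.01 and 8.27 with P4, where the groups overlapped. The difference was 1.68 (SE 0.30, limma, adjusted p = 0.0106). Ugt2a2, a glucuronosyltransferase, was under 0.05 FPKM in all oil libraries. With P4 it reached 1.16, 1.35, 0.930 and 0.768 in ePRAoe and 5.24, 6.07, 4.54 and 4.05 in ePRBoe. Over the groups other than ePRBoe P4 its mean was under 1 FPKM. It too entered the test through that group, so no test is given for it. No ePRAoe P4 library reached the ePRBoe P4 range. Members of the Cyp2j, Adh6, Ugt2a, Phf11 and Sprr2 families share sequence with close relatives, so reads may have been split among them in ways the sources used here do not state.

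Of 19 amino acid transporters and 17 genes of ion and water transport, 1 each was called, Slc6a14 and Car12, against 2.28% of all features. The medians of the lists were 0.04 and 0.06. Slc5a5, the sodium-iodide symporter, read 2.76, 2.70, 2.13 and 6.14 FPKM in ePRAoe P4 and 7.83, 22.1, 17.6 and 16.9 in ePRBoe P4, with 0.440 to 0.923 in oil. ePRAoe P4 replicate 4 was high for its group and still lay below every ePRBoe P4 library, and the difference was 2.02 (SE 0.39, limma, adjusted p = 0.0162). Slc6a14, an amino acid transporter, rose in both strains from between 1.05 and 1.44 FPKM to 31.5, 33.0, 24.9 and 27.2 in ePRAoe and 70.3, 63.6, 105 and 51.9 in ePRBoe (difference 1.33, SE 0.22, adjusted p = 0.00771). The P4 groups did not overlap. Lcn2, lipocalin 2, a secreted carrier of iron-binding siderophores, went to 54.7, 74.5, 37.6 and 48.3 FPKM in ePRAoe and 165, 121, 138 and 110 in ePRBoe from 18.0 to 30.4 in oil. Its difference of 1.19 (SE 0.27, adjusted p = 0.0316) was called in 7 of 16 fits that left out 1 library.

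Among nuclear proteins, Setdb2, a SET-domain protein of the histone methyltransferase type, read 5.43, 4.83, 5.24 and 4.79 FPKM in ePRAoe P4 and 15.2, 19.1, 46.3 and 18.5 in ePRBoe P4 (difference 1.96, SE 0.33, limma, adjusted p = 0.0083). The value of 46.3 is again that of ePRBoe P4 replicate 3, without which the difference was 1.62 (adjusted p = 3.53e-05). Phf11c, a PHD-finger gene 8497 bases from Setdb2 on chromosome 14, had 2.68 to 3.35 FPKM in ePRAoe P4 and 9.02, 11.7, 36.0 and 10.2 in ePRBoe P4. Its difference of 1.87 (adjusted p = 0.038) was called in 3 of 16 such fits, and was 1.44 (adjusted p = 0.0011) without ePRBoe P4 replicate 3. Nr4a3, an orphan nuclear receptor of the immediate early class, read 0.149 to 0.285 FPKM in ePRBoe oil and 2.20, 4.81, 8.40 and 3.78 with P4, against 0.338 to 0.753 in ePRAoe P4, and it too passed 1 FPKM in ePRBoe P4 alone. No other gene of the 22 tested in the immediate early list was called, while 2.28% of all features were. Nrip3 rose to 2.79, 3.62, 2.44 and 2.78 FPKM in ePRAoe P4 and to 18.7, 15.1, 6.61 and 12.6 in ePRBoe P4 from at most 0.331 in oil (difference 1.79, SE 0.29, limma, adjusted p = 0.00696), and lies 17145 bases from Scube2 on chromosome 7.

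Enzymes of the extracellular matrix included 2 called genes of 24 tested proteases and inhibitors, against 2.28% of all features. Mmp19, a matrix metalloproteinase, read 21.9, 18.9, 25.2 and 19.0 FPKM in ePRAoe P4 and 58.2, 58.7, 88.6 and 74.5 in ePRBoe P4, from 7.71 to 13.7 in oil (difference 1.49, SE 0.23, limma, adjusted p = 0.0049). Its gene overlaps Tmem198b, which was also called higher, and whether the counting used strand is not given in the sources used here. Adamts15, a versican-cleaving protease, rose to 44.3, 31.2, 42.7 and 35.4 FPKM in ePRAoe and 95.03, 78.3, 99.3 and 87.4 in ePRBoe (difference 1.16, SE 0.22, adjusted p = 0.0141). Neither gene's P4 groups overlapped.

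Genes known to respond to P4 in the uterus were taken as a list of 28, of which 27 were tested. With P4, 23 of them rose in ePRAoe and none fell, while 23 rose and 1 fell in ePRBoe. Of all features tested, 36.6% rose and 33.2% fell in ePRAoe, and 36.2% rose and 32.9% fell in ePRBoe. The difference of the responses was called higher for 6 (Areg, Cyp26a1, Il13ra2, Fkbp5, Cited2 and Slc6a14) and lower for none. Over all features 1.47% were called higher and 0.811% lower. Of the 27 tested, 18 lay above 0, and the median was 0.29 against 0.01 over all features. Between 3 and 7 members were called when 1 library was left out, and 7 without ePRBoe P4 replicate 3. The summed level of the list was 954 to 1100 FPKM in ePRAoe oil, 1067 to 1303 in ePRBoe oil, 2773 to 3058 in ePRAoe P4 and 4032 to 4135 in ePRBoe P4. The P4 groups of the strains did not overlap in this sum, and the oil groups did.

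Fkbp5, an immunophilin of the Hsp90 and steroid receptor complex and a standard readout of steroid receptor activity, rose from between 1.75 and 4.13 FPKM in oil to 48.1, 46.9, 42.4 and 37.6 in ePRAoe P4 and 143, 136, 178 and 110 in ePRBoe P4. The strains were separated with P4 and the difference was 1.27 (SE 0.21, limma, adjusted p = 0.00771). Il13ra2, a decoy receptor for interleukin 13, went to 26.1, 19.6, 26.7 and 23.0 FPKM in ePRAoe and 77.6, 66.6, 78.4 and 72.8 in ePRBoe (difference 1.20, SE 0.25, adjusted p = 0.0254). Cited2, a transcriptional coregulator, rose to 58.6, 72.7, 54.5 and 59.2 FPKM in ePRAoe and 164, 169, 95.01 and 142 in ePRBoe from between 27.5 and 45.1 in oil. Its difference of 1.08 (SE 0.24, adjusted p = 0.0348) was called in 5 of 16 fits that left out 1 library, and that of Il13ra2 in 13.

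Other members of the list responded strongly in both strains with a difference that did not pass the test. Hsd11b2, which inactivates glucocorticoids, rose by 5.65 in ePRAoe and 5.86 in ePRBoe, a difference of 0.21 (95% confidence interval -0.24 to 0.66, limma, adjusted p = 0.675). Lrp2, the endocytic receptor megalin, had 4.28 and 4.56 (difference 0.28, interval -0.37 to 0.93, adjusted p = 0.702). Hand2, a stromal factor that mediates the P4 block on epithelial growth, rose by 1.04 in each strain, and the 95% confidence interval of its difference ran from -0.31 to 0.31. Fst, follistatin, an activin-binding protein, came close to the threshold (0.69, SE 0.18, adjusted p = 0.0602), as did Calca, the calcitonin gene (2.61, SE 0.66, adjusted p = 0.0569). For Calca the ePRBoe P4 values were 18.2, 36.6, 182 and 34.7 FPKM, all above the ePRAoe P4 range of 4.83 to 8.83, and the value of 182 belongs to ePRBoe P4 replicate 3, without which the difference was 1.95 (adjusted p = 0.0036, past the threshold).

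Targets shared by steroid receptors, such as those of the glucocorticoid receptor, leaned the same way. Of 19 tested, 18 lay above 0 with a median of 0.50, against 51.6% of all features above 0. Fkbp5 and Pdk4 were the 2 called, against 2.28% of all features. Pdk4, the kinase that shuts off pyruvate dehydrogenase, went from 5.64 to 9.59 FPKM in ePRAoe oil to 1.76, 2.87, 2.94 and 2.71 with P4, and from 6.23 to 9.61 in ePRBoe oil to 4.82, 6.10, 7.11 and 5.85. It fell in ePRAoe by 1.24, and its call for the difference (0.96, limma, adjusted p = 0.0455) held in 3 of 16 fits that left out 1 library. Among steroid receptors and coregulators, 1 of 25 was called: Esr1, estrogen receptor alpha, fell in both strains and further in ePRBoe. It read 83.0, 80.0, 89.2 and 85.0 FPKM in ePRAoe oil, 62.3, 72.4, 62.2 and 67.3 in ePRAoe P4, 90.1, 84.0, 80.7 and 81.9 in ePRBoe oil, and 54.9, 40.9, 49.9 and 47.4 in ePRBoe P4. The P4 groups did not overlap, and the difference of -0.45 (SE 0.11, adjusted p = 0.0457) was called in 3 of 16 such fits.

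The genes with a lower response in ePRBoe included 6 of the 35 listed genes of DNA replication and S phase, all of which were tested. With P4, 30 of them rose in ePRAoe and none fell, whereas in ePRBoe 5 rose and 8 fell. Over all features the shares were 36.6% rising and 33.2% falling in ePRAoe, and 36.2% and 32.9% in ePRBoe. The median response was 0.98 in ePRAoe and -0.21 in ePRBoe, and the difference of the responses was below 0 for 34 of the 35, with a median of -0.99. Over all features 51.6% lay above 0 and the median was 0.01. The members were read from the same libraries, so their signs are not separate observations. The 6 members called lower, against 0.811% of all features, included Mcm3, Gins2, Pold1, Rfc3 and Lig1, and none was called higher. Without ePRBoe P4 replicate 3 the median was -0.83 and 4 members were called.

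The number of called replication genes rested on single libraries more than their direction did. It was 0 without ePRAoe oil replicate 3, ePRAoe P4 replicate 2, ePRAoe P4 replicate 4 or ePRBoe oil replicate 4, and 1 without ePRAoe oil replicate 1 or ePRBoe oil replicate 3. It was 2 without ePRBoe P4 replicate 2, 4 without ePRAoe oil replicate 2, ePRAoe P4 replicate 3, ePRBoe oil replicate 1 or ePRBoe P4 replicate 1, 9 without ePRBoe oil replicate 2, 10 without ePRAoe P4 replicate 1 and 23 without ePRAoe oil replicate 4. In each of these fits at least 34 members lay below 0 and the median stayed between -1.12 and -0.83. The summed FPKM of the 35 genes shows the spread behind this: 281, 399, 291 and 502 in ePRAoe oil, 575, 767, 660 and 849 in ePRAoe P4, 356, 306, 412 and 470 in ePRBoe oil, and 400, 383, 294 and 447 in ePRBoe P4. The ePRAoe P4 libraries lay above every other library, the ePRBoe groups overlapped each other, and ePRBoe P4 replicate 3 was the lowest of its group.

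Lig1, DNA ligase I, which seals Okazaki fragments, read 8.02, 10.3, 8.33 and 12.8 FPKM in ePRAoe oil, 9.14, 14.7, 11.96 and 16.3 in ePRAoe P4, 9.35, 8.85, 11.2 and 11 in ePRBoe oil, and 5.30, 5.01, 3.11 and 5.92 in ePRBoe P4. In ePRBoe every P4 library lay below every oil library, and in ePRAoe the groups overlapped. The difference was -1.31 (SE 0.27, limma, adjusted p = 0.0227). Gins2, a subunit of the replicative helicase complex, rose by 0.73 in ePRAoe and fell by 0.85 in ePRBoe, with 10.9, 15.6, 13.7 and 18.8 FPKM in ePRAoe P4 against 4.67, 5.11, 3.32 and 6.50 in ePRBoe P4 (difference -1.58, SE 0.34, adjusted p = 0.0287). The P4 groups were separate for both genes. The calls of Lig1 and Gins2 held in 10 and 9 of 16 fits that left out 1 library.

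Mcm3, a subunit of the helicase motor, read 23.9, 34.9, 28.3 and 38.0 FPKM in ePRAoe P4 and 14.5, 12.9, 9.24 and 16.4 in ePRBoe P4 (difference -1.42, SE 0.35, limma, adjusted p = 0.049, called in 4 of 16 such fits). Its oil values ran from 9.001 to 20.5 and overlapped between the strains. Pold1, the catalytic subunit of DNA polymerase delta, fell in ePRBoe from between 11.7 and 13.2 FPKM to 9.20, 9.21, 7.52 and 9.40, while ePRAoe P4 had 12.7, 15.3, 13.0 and 16.3 (difference -0.65, SE 0.13, adjusted p = 0.0225). The largest negative value in the list was that of Uhrf1, a partner of maintenance DNA methylation, at -2.39, which was not called (SE 0.70, adjusted p = 0.0905). Its oil values alone ran from 3.08 to 17.8 FPKM in ePRAoe. Orc1, a subunit of the origin recognition complex, was the single member above 0 (0.14, adjusted p = 0.872) and rose in both strains.

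A further 21 genes of replication, repair and chromosome upkeep outside the lists were picked after their values were seen, for a called lower response in ePRBoe. Their differences ran from -1.55 to -0.30, a direction fixed by the choice. They included Tcf19, Dscc1, Gmnn, Pole2, Pola2, Rpa2, Rad54l, Chtf18 and Msh6. In ePRAoe 16 of the 21 rose, and in ePRBoe 13 fell, against 36.6% and 32.9% of all features. Both counts are favoured by the choice too, since both responses enter the difference. Rad21, a subunit of cohesin that is also outside the lists, was called higher (0.35, limma, adjusted p = 0.0117). Dscc1, which helps load the PCNA clamp, read 1.93, 2.98, 2.51 and 3.97 FPKM in ePRAoe P4 and 0.600, 0.555, 0.286 and 0.793 in ePRBoe P4, with no overlap (difference -1.50, SE 0.28, limma, adjusted p = 0.0141).

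Mitotic genes lay on the same side without passing the test. All 24 tested members of the mitosis list were below 0, with a median of -0.87, and none was called. Of all features tested, 51.6% lay above 0. The members of this list too were read from the same libraries, so their signs are not separate observations. With P4, 36.6% of all features rose and 33.2% fell in ePRAoe, and 36.2% rose and 32.9% fell in ePRBoe. The list lay below each of these shares: in ePRAoe 4 rose and none fell, and in ePRBoe 1 fell and none rose. The 4 that rose became 12 without ePRAoe oil replicate 4, 7 without ePRAoe oil replicate 2 or ePRBoe P4 replicate 3, 2 without ePRAoe P4 replicate 2, ePRBoe oil replicate 3 or ePRBoe P4 replicate 2, and 1 without ePRAoe oil replicate 1 or 3 or ePRAoe P4 replicate 1, 3 or 4. Without ePRAoe oil replicate 1, 1 member also fell in ePRAoe, and 2 fell in ePRBoe without ePRBoe P4 replicate 2 or 4. Without ePRBoe P4 replicate 3 the median was -0.58 and 23 lay below 0. The summed level was 51.4, 150, 55.6 and 207 FPKM in ePRAoe oil, 165, 158, 161 and 230 in ePRAoe P4, 99.8, 75.1, 146 and 189 in ePRBoe oil, and 118, 134, 41.1 and 165 in ePRBoe P4. ePRAoe oil replicates 1 and 3 and ePRBoe P4 replicate 3 were low and the other libraries overlapped across all groups.

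**Figure D3:**
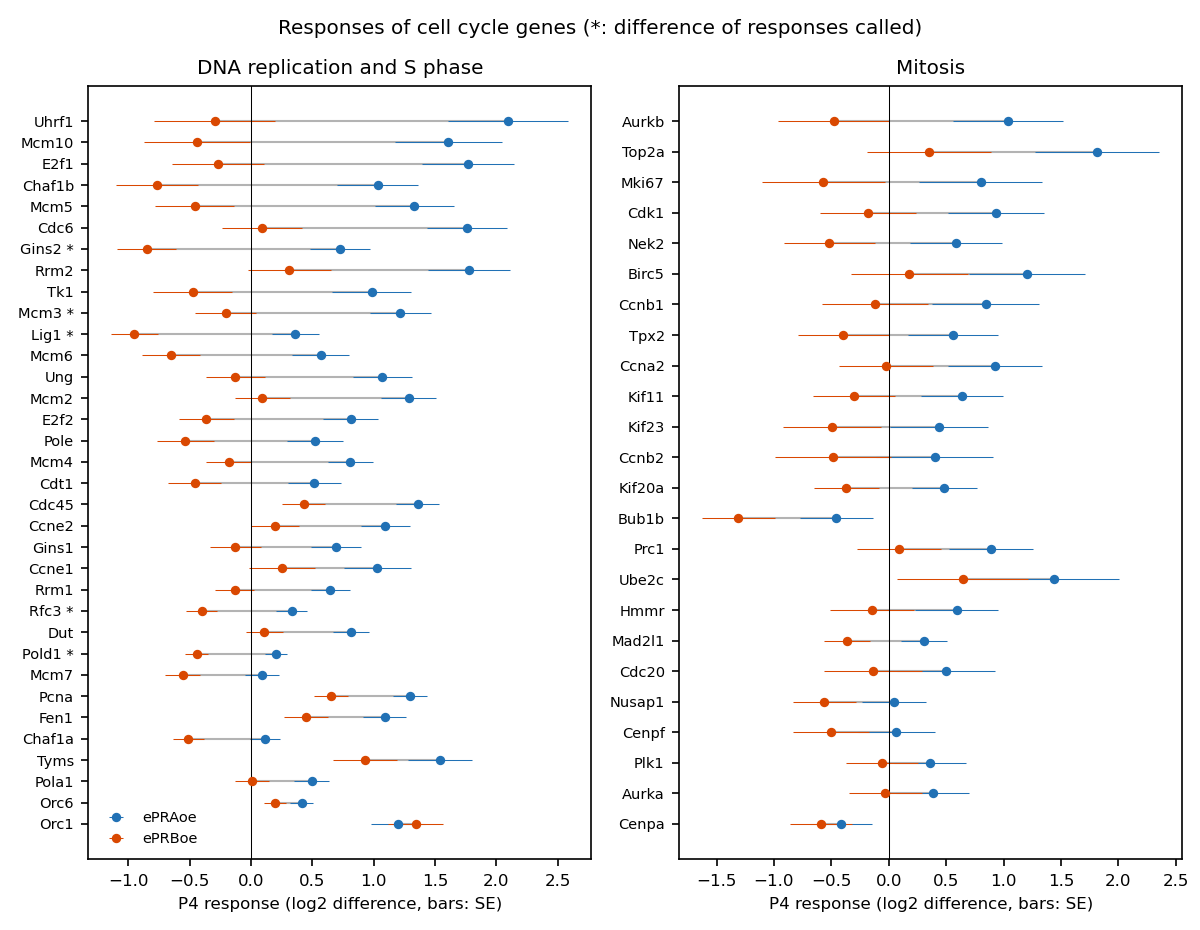
P4 responses of 34 of the 35 genes of DNA replication and S phase and of 24 genes of mitosis, in ePRAoe (blue) and ePRBoe (orange), as log2 differences between P4 and oil with their SE. Genes are ordered by the difference of the responses and an asterisk marks those called; all points of ePRBoe but that of Orc1 lie to the left of those of ePRAoe.

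Promoters of the replication list are shown because replication genes are known targets of E2F factors, which drive entry into S phase. Whether E2F factors had a part in the responses described here was not tested. Windows of 300 bases, 250 before to 50 after the start, were taken from RefSeq (GRCm38.p6) for 10508 of the 15408 features, 13404 windows in all. The words TTTGGCGC and TTTCCCGC, used here for the E2F site and searched on both strands, were present in 2.68% of all windows, in 9.01% of the 111 windows of genes with a lower response and in 3.37% of the 208 windows of genes with a higher response. They were present in 28.6% of the 35 windows of the replication list and in none of the 21 windows of the mitosis list. The genes of the replication list with a match were Cdc6, Cdt1, E2f2, Mcm3, Mcm5, Mcm6, Mcm7, Pola1, Pold1 and Rfc3. Those with a lower response and a match were Atad5, Mcm3, Msh6, Ncapg2, Pold1, Pole2, Rad51c, Rfc3 and Zfp367. All of these are in the replication list or among the replication and repair genes picked above. The shares of the lower responses and of the replication list thus overlap. A match is a description of letters and no evidence of binding. Mcm3 (chr1:20820263-20820562, minus strand) has 2 matches and Pold1 (chr7:44548766-44549065, minus strand) has 1, in capitals below, each read 5′ to 3′ on the gene's strand.
Mcm3: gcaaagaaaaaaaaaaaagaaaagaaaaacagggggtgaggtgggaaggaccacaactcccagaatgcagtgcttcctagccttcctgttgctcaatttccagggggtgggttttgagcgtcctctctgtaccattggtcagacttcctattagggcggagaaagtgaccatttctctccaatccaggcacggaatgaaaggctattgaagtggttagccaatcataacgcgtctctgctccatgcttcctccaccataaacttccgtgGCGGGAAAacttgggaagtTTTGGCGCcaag
Pold1: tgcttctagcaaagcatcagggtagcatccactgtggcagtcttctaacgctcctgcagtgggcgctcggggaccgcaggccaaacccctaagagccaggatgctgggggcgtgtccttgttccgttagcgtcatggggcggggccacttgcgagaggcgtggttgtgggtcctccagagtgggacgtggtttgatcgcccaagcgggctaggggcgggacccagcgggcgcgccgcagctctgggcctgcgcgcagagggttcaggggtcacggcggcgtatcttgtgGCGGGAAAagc

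The same windows were searched for the response element shared by the progesterone and glucocorticoid receptors, GNACANNNTGTNC, and for its core, ACANNNTGT. The full element was in 0.343% of all windows, in 0.962% of those of genes with a higher response (2 windows, of Map7d2 and Suox) and in none of those of genes with a lower response. The core was in 4.52% of all windows, in 10.6% of those of genes with a higher response (22 windows) and in 10.8% of those of genes with a lower response (12 windows), so its share was alike for both directions. The full estrogen response element GGTCANNNTGACC was in 1 window of all. Named genes with a higher response show the core, in capitals: Ugt2a2 (chr5:87482209-87482508, minus strand), Lcn2 (chr2:32387690-32387989, minus strand), Greb1 (chr12:16757190-16757489, minus strand) and Car12 (chr9:66713436-66713735, plus strand). The Greb1 window surrounds a start inside the gene (chr12:16670615-16801394), not its outermost start.
Ugt2a2: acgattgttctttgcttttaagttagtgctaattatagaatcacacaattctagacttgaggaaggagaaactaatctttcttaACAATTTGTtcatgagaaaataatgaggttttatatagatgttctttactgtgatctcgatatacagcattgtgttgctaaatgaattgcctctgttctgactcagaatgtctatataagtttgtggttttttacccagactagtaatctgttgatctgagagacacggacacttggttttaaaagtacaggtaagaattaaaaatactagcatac
Lcn2: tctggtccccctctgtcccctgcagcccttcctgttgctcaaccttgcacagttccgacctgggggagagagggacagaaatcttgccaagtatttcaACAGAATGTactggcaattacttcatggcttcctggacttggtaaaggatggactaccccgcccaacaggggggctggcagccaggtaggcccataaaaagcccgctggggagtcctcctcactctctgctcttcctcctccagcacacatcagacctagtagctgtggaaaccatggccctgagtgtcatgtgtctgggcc
Greb1: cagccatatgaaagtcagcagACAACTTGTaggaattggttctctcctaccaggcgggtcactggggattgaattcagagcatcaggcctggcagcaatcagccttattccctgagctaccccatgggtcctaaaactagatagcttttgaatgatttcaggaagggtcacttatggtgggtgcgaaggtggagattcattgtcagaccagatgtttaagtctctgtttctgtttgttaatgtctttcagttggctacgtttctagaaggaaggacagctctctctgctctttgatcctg
Car12: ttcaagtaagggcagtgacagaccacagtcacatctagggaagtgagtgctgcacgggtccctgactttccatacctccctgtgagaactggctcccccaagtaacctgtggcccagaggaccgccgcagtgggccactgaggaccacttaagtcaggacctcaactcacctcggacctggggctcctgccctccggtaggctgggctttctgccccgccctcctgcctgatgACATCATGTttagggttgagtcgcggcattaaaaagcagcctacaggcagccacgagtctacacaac
Greb1, an early target of steroid receptors, rose to 19.1, 16.2, 13.2 and 13.2 FPKM in ePRAoe P4 and 37.6, 34.8, 38.5 and 27.3 in ePRBoe P4 (difference 1.09, SE 0.24, limma, adjusted p = 0.0293, called in 6 of 16 fits that left out 1 library). Car12, a carbonic anhydrase, had 7.40, 6.56, 6.39 and 9.34 against 12.4, 18.1, 23.2 and 18.2 (difference 1.27, SE 0.31, adjusted p = 0.0457, called in 4 of 16). The P4 groups did not overlap for either gene.

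Beyond replication, the lower responses included genes that P4 lowered in both strains. Cdkl1, a CDK-like kinase, read 131, 95.3, 140 and 81.8 FPKM in ePRAoe oil and 105, 118, 94.8 and 75.1 in ePRBoe oil, and fell to 28.8, 27.0, 19.3 and 24.5 in ePRAoe and 7.83, 6.45, 8.21 and 5.72 in ePRBoe. The oil groups overlapped and the P4 groups did not, and the difference was -1.51 (SE 0.26, limma, adjusted p = 0.00876). Mycl, a Myc-family transcription factor, had 7.74, 8.59, 8.09 and 9.67 with P4 in ePRAoe and 2.54, 2.81, 3.48 and 3.71 in ePRBoe, from 10.6 to 18.4 in oil (difference -1.45, SE 0.21, adjusted p = 0.00353). Wnt16, a Wnt ligand, went to 10.9, 8.92, 11.6 and 11.1 in ePRAoe and 5.36, 3.89, 5.56 and 6.37 in ePRBoe (difference -1.21, SE 0.19, limma, adjusted p = 0.00617). It was the single called gene of 29 in Wnt signalling, against 2.28% of all features, and the list's median was -0.24. Lrrc17, a secreted leucine-rich repeat protein, fell by 1.07 in ePRAoe and 2.25 in ePRBoe (difference -1.18, SE 0.21, adjusted p = 0.0104).

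Other lower responses came from genes that moved in 1 strain or in opposite directions. Igsf10, an immunoglobulin-superfamily protein, read 6.26, 7.37, 10.9 and 10.1 FPKM with P4 in ePRAoe, overlapping its oil values of 6.74 to 8.94, and fell in ePRBoe from between 7.84 and 10.5 to 2.67, 2.10, 2.80 and 2.96 (difference -1.57, SE 0.21, limma, adjusted p = 0.00144). Tmem132c, a transmembrane protein, read 17.6, 20.6, 37.1 and 31.3 in ePRAoe P4 and 6.49, 4.80, 10.4 and 8.27 in ePRBoe P4, from 12.5 to 29.1 in oil (difference -1.97, SE 0.38, adjusted p = 0.0157). It rose by 0.68 in ePRAoe and fell by 1.30 in ePRBoe. Rxfp1, the receptor of relaxin, which softens and quiets the uterus, read 22.1, 35.3, 25.5 and 31.6 in ePRAoe P4 and 13.7, 13.2, 16.5 and 15.6 in ePRBoe P4 (difference -1.15, SE 0.20, adjusted p = 0.0108). Its oil values were 14.5, 16.6, 14.7 and 20.3 in ePRAoe and 24.1, 17.9, 19.5 and 17.8 in ePRBoe, so it rose by 0.75 in the first strain and fell by 0.40 in the second.

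Several genes rose in ePRAoe alone or mainly there. Elovl2, which lengthens polyunsaturated fatty acids, was under 0.21 FPKM in oil. With P4 it read 8.80, 6.46, 8.19 and 6.92 in ePRAoe and 1.64, 2.47, 1.82 and 3.31 in ePRBoe. Its mean over the groups other than ePRAoe P4 was under 1 FPKM. It entered the test through that group, so no test is given for it. Nppc, the precursor of C-type natriuretic peptide, read 4.31, 4.91, 2.98 and 4.25 in ePRAoe P4 and 1.43, 0.911, 0.306 and 0.974 in ePRBoe P4. The latter overlapped its oil range of 0.626 to 1.85 (difference -1.53, SE 0.33, limma, adjusted p = 0.0273, called in 11 of 16 fits that left out 1 library). Sprr2e, a cornified-envelope protein known to follow estrogen, reached 8.53, 12.1, 6.60 and 6.64 in ePRAoe P4 and 1.65, 1.22, 0.984 and 2.43 in ePRBoe P4 (difference -1.68, SE 0.35, adjusted p = 0.0254, called in 9 of 16). In the list of estrogen-responsive genes, with 21 tested, it was the 1 called lower, and Lcn2 and Greb1 were the 2 called higher. Over all features 1.47% were called higher and 0.811% lower. Between 0 and 2 members of the list were called in each direction when 1 library was left out. In that list 15 lay below 0 and the median was -0.23, against 51.6% of all features above 0 and a median of 0.01. Col6a3, a chain of collagen VI, rose in ePRAoe from between 29.5 and 36.4 FPKM to 60.4, 68.4, 69.8 and 89.5 and read 32.5, 33.2, 37.6 and 43.8 in ePRBoe P4 (difference -0.96, SE 0.16, adjusted p = 0.00696).

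**Figure D4:**
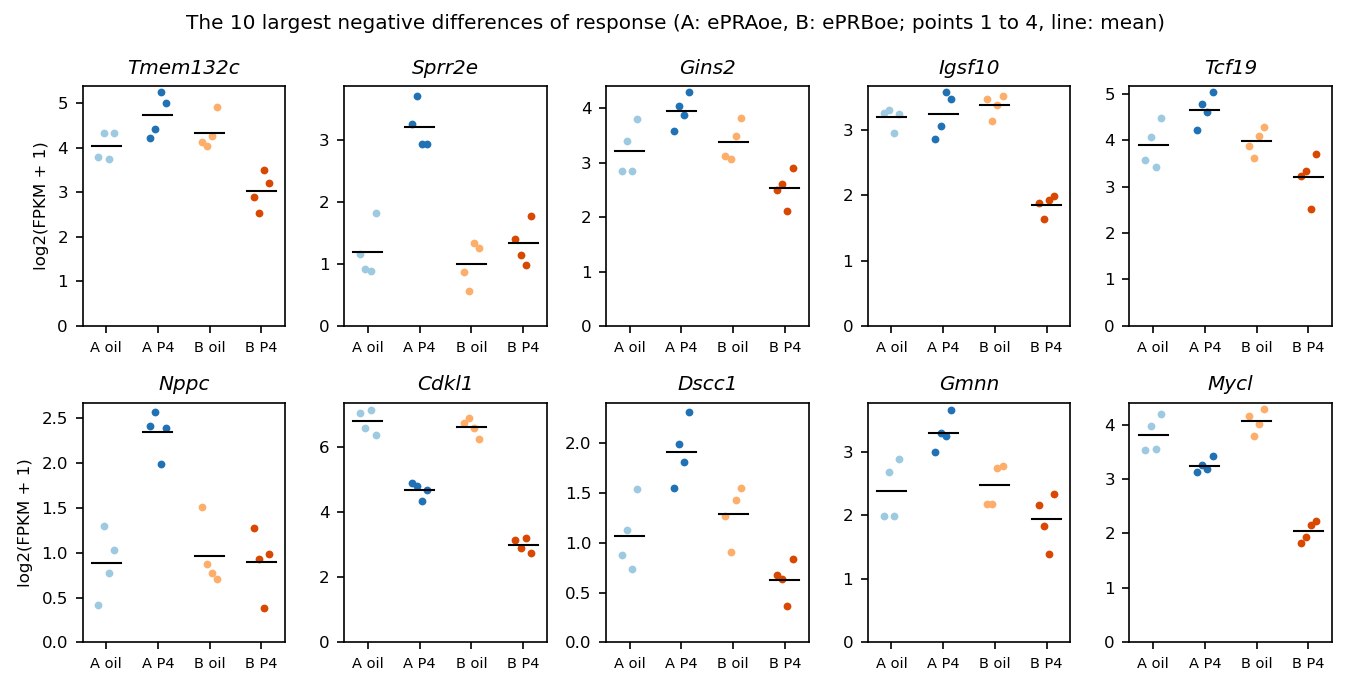
Levels on the log2(FPKM + 1) scale of the 10 genes with the largest negative difference of response (clones, predicted genes and small RNAs left out), arranged by group with 4 libraries each (replicate 1 to 4 from left to right) and lines at the group means. Tmem132c, Gins2, Tcf19 and Dscc1 rose in ePRAoe and fell in ePRBoe, whereas Cdkl1 and Mycl fell in both and further in ePRBoe.

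Of the 788 tested members of all lists, 40 (5.08%) were called, against 2.28% of all features, and the lists were chosen with earlier results known. Of 35 pathway lists, 22 held at least 1 called member and 13 held none, among them ribosome biogenesis, folding in the endoplasmic reticulum, Notch signalling and interferon-stimulated genes. All 29 tested genes of ribosome biogenesis rose in both strains, with medians of 1.28 and 1.19. Of all features, 36.6% rose in ePRAoe and 36.2% in ePRBoe. The differences of the 29 genes lay between -0.28 and 0.14, with 22 below 0, while 51.6% of all features lay above 0. Serine, one-carbon and tRNA synthetase genes also rose together (28 of 28 in ePRAoe and 27 in ePRBoe), and 22 of their differences lay below 0. The 1 called was the mitochondrial folate enzyme Mthfd1l, with 10.9, 18.0, 18.5 and 18.0 FPKM in ePRAoe P4 and 6.68, 6.15, 6.56 and 8.87 in ePRBoe P4 (difference -0.99, SE 0.22, limma, adjusted p = 0.0297, called in 6 of 16 fits that left out 1 library). Polyamine metabolism had 2 called of 11, both of breakdown rather than synthesis: Smox (0.90, SE 0.17, adjusted p = 0.015) and Sat1 (0.66, SE 0.11, adjusted p = 0.00662), while the synthetic enzyme Odc1 was not called (-0.27, adjusted p = 0.518). Smox read 82.4, 74.6, 62.6 and 68.8 in ePRAoe P4 and 144, 145, 128 and 129 in ePRBoe P4, without overlap.

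Regulators of contraction held 3 called genes of 18 in mixed directions, against 2.28% of all features. Among them were Nppc and the calcium channel subunit Cacna1c (-0.65, limma, adjusted p = 0.0426). Cacna1c fell by 0.49 in ePRAoe and 1.14 in ePRBoe. Ptgs1, the constitutive cyclooxygenase, was the single called gene of 21 in the prostaglandin list and rose to 78.7, 68.1, 57.4 and 60.3 FPKM in ePRAoe P4 and 90.4, 107, 96.3 and 91.7 in ePRBoe P4 from between 26.1 and 30.9 in oil (0.64, SE 0.12, adjusted p = 0.0141). Npas2, a partner of the clock factor Bmal1, was the single called gene of 19 in the circadian list (1.09, SE 0.26, adjusted p = 0.0439). The calls of Cacna1c and Npas2 held in 4 and 6 of 16 fits that left out 1 library.

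**Figure D5:**
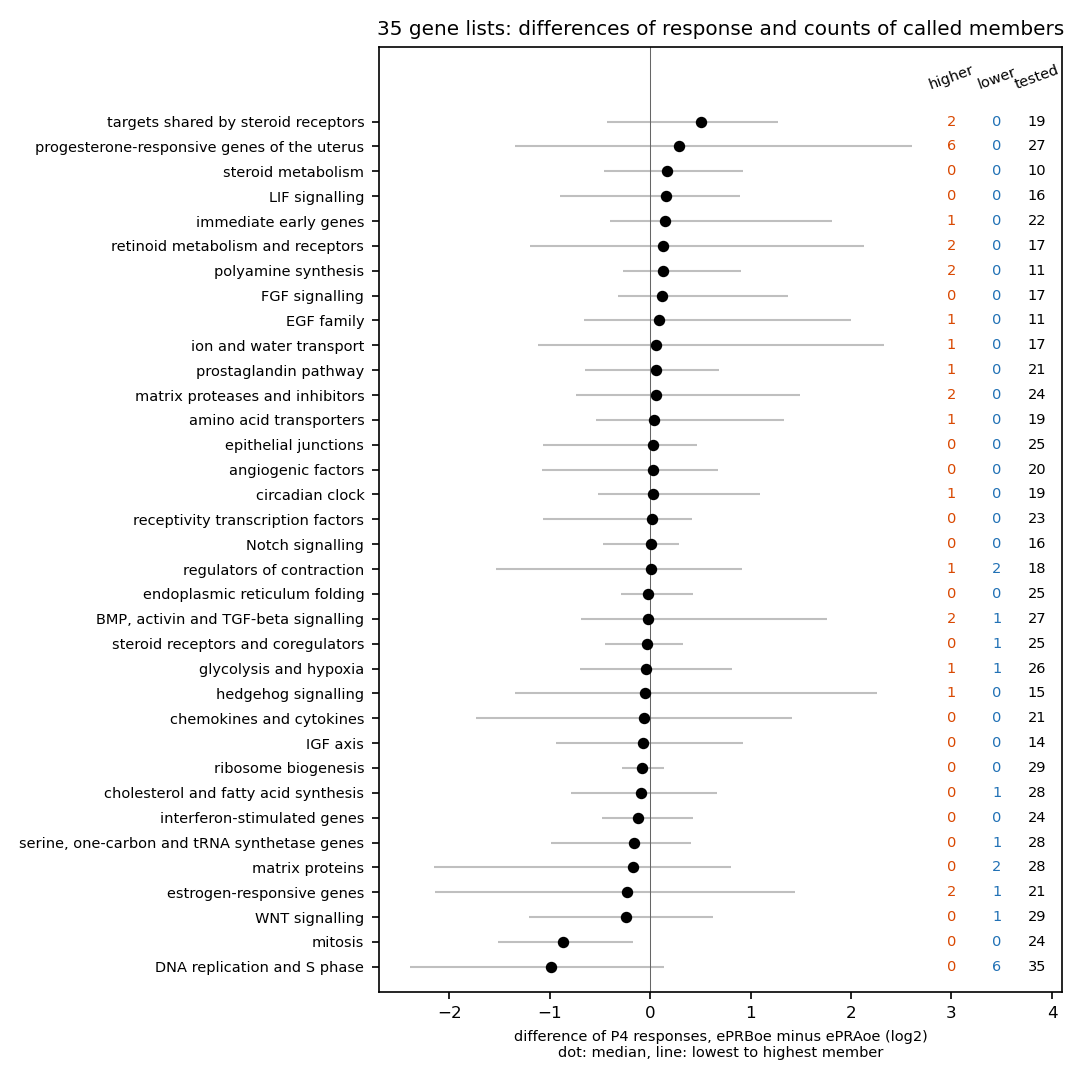
For each of 35 gene lists, the dot is the median difference of the P4 responses (ePRBoe minus ePRAoe, log2) over its tested members and the line runs from the lowest to the highest member. Numbers at the right give members called higher, called lower and tested; replication and mitosis have the lowest medians, -0.99 and -0.87, and targets shared by steroid receptors the highest, 0.50.

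Marker lists of the cell types were read beside the results. Of 11 marker lists, 10 had no called member, and in the stromal list Col6a1 was called lower (-0.61, limma, adjusted p = 0.0392). Summed over its 16 tested genes the epithelial list reached 1290 to 1646 FPKM in ePRAoe P4 and 1641 to 2042 in ePRBoe P4, from 1237 to 1411 in oil. The leukocyte list (12 genes) reached 300 to 343 and 359 to 583 with P4, from 278 to 369 in ePRAoe oil and 361 to 401 in ePRBoe oil, and the highest value was that of ePRBoe P4 replicate 3. The endothelial list (10 genes) had 242 to 300 with P4 in ePRAoe and 328 to 343 in ePRBoe, all 10 genes above 0 and none called. Red blood cell genes (4 tested) had the largest median of any list, 1.34, with none called and sums of 99.2 to 471 FPKM in ePRAoe P4 and 192 to 538 in ePRBoe P4. Other lists went the other way: 11 of 15 smooth muscle genes and 10 of 13 stromal genes lay below 0, while 51.6% of all features lay above 0. Skeletal muscle genes (3 tested) summed to 82.9 to 152 FPKM in ePRAoe P4 and 48.5 to 79.8 in ePRBoe P4, without overlap. All 8 adipose genes lay above 0, with sums from 133 to 979 FPKM within ePRAoe oil. The part of these levels in the differences described above was not tested.

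Some genes with a higher response in ePRBoe were neighbours on the chromosome. Of 218 with a position in RefSeq, 34 (15.6%) had another such gene within 100 kb, and 5.23% of all 14407 tested genes with a position lay that near to one. Of 120 genes with a lower response, 4 (3.33%) had such a neighbour, against 2.83% of all tested. The 20 pairs included Scube2 and Nrip3, Setdb2 and Phf11c, and Pate4 and Hyls1. Some pairs overlap, such as Mmp19 with Tmem198b and Thpo with Chrd, and reads of overlapping genes cannot be told apart without strand.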

How the data were processed

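RNA-seq libraries of whole uterus were analysed, 4 in each of 4 groups. The authors deposited FPKM values per feature and library, without fragment counts used here, so the depth is unknown. The build mm10 and the tools TopHat2 (version 2.0.4), Cufflinks (2.0.2) and Cuffdiff stand, without roles, per the submitters' processing notes. Annotation, strandedness and scaling between libraries are not stated there or in the labels. Libraries were grouped by title and treatment label. Nothing in the labels ties a replicate number to an animal across groups, and p-values measure the spread between these libraries.

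Values were taken as log2(FPKM + 1), a scale that shrinks the changes of low genes, and 15408 features were kept, those averaging 1 FPKM or more. One limma 3.58.1 model in R 4.3.3 held a mean for each of the 4 groups over 16 libraries, with an intensity trend, and gave 5 contrasts: the difference of the P4 responses, the P4 response in each strain and the strain difference within each treatment. Tests were two-sided and moderated, with Benjamini-Hochberg adjustment over all 15408 features. All log2 differences are on this scale. The procedure was checked on simulated data.

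The members, gene lists and tests were chosen with earlier results of these data known. The text names Pgr, the 20 largest differences in each direction among called features, the 10 largest with called responses of opposite sign, and up to 4 called members of a list (the 2 of highest level if it had no called member). Il13ra2, Cited2, Pold1, Rfc3, Uhrf1, Orc1, Ihh, Ptch1, Gli1, Calca, Fst, Lrp2, Hand2, Bmp2, Egfr, Erbb2, Aldh1a1, Aldh1a3, Odc1, Tmem198b, Map7d2, Suox, Rad21 and the 21 replication and repair genes outside the lists were chosen after their values were seen. Clones, predicted genes and small RNAs (25 of the called features) were counted without values, and some genes named by this rule are not reported here. Alternatives were another pseudocount (0.1), no filter, 2 other scalings, no trend, sample quality weights, 2 fits with a block and leaving out each library. Gene positions and promoter windows came from RefSeq (GRCm38.p6, the assembly behind mm10).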

Additional observations from a re-analysis of the deposited data

Results flagged for a closer look

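The response to P4 differed between the strains for 352 features by the test of the difference itself. The called responses of the 2 strains had opposite signs in 19 features with a higher and 17 with a lower response in ePRBoe, and 9 of those with the largest differences are given here. Bmp4 (1.76) fell in ePRAoe and rose in ePRBoe. Tmem132c (-1.97), Gins2 (-1.58), Tcf19 (-1.55), Dscc1 (-1.50), Ncapg2 (-1.19), Zfp367 (-1.18), Rxfp1 (-1.15) and Smim3 (-1.03) rose in ePRAoe and fell in ePRBoe (difference of responses on the log2 scale, limma). The difference was called in all 16 fits that left out 1 library for Bmp4, Tmem132c, Dscc1 and Rxfp1, in 9 for Gins2 and Zfp367, and in 4 for Tcf19, Ncapg2 and Smim3. Smim3, a small integral membrane protein, read 79.5, 84.4, 61.2 and 90.2 FPKM in ePRAoe P4 and 26.4, 47.3, 29.3 and 45.7 in ePRBoe P4, and its groups did not overlap with P4.

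Single libraries stood far from the rest of their group in 7 of 84 sets of 4 values examined over 21 genes; chance alone flags about 1 in 20 sets. In ePRBoe P4 replicate 3 this held for Pgr (78.5 FPKM, low), Ms4a8a (125, high) and Setdb2 (46.3, high). The others were Cyp2j11 in ePRAoe oil replicate 2 (0.00811 FPKM), Acsbg1 in ePRAoe P4 replicate 1 (0.881), Slc5a5 in ePRAoe P4 replicate 4 (6.14) and Nppc in ePRBoe oil replicate 1 (1.85), all high for their group. The other 3 values of the Cyp2j11 set are 0, so any value above 0 would have stood apart there.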

How the results depend on the processing

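The 352 calls became 340 with a pseudocount of 0.1, 314 without the filter, 363 with median-ratio scaling, 253 with quantile normalization and 349 without the trend. Sample quality weights gave 979 calls (603 higher and 376 lower) and 4711 calls between the strains with P4; the cause was not tested. Leaving out each library in turn gave 155 to 508 calls, 120 to 342 of them higher and 34 to 207 lower, with the fewest lower calls without ePRAoe oil replicate 3 and the most without ePRAoe oil replicate 4. The total moved by over 1.5 times without ePRAoe oil replicate 1 (176), 2 (228) or 3 (161), ePRAoe P4 replicate 2 (188) or 4 (155), ePRBoe oil replicate 1 (204), 3 (185) or 4 (164), or ePRBoe P4 replicate 2 (191). The share of higher calls ran from 56.6% to 78.9% over these fits. Between the strains with oil, the 18 calls became 33 without the filter, 11 without small RNA, clone and predicted features (chosen after seeing the data, 388 calls for the difference of responses) and 8 to 30 (30 without ePRBoe P4 replicate 3) when 1 library was left out; with P4 the 2471 calls became 1416 to 2632.

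Same-numbered libraries did not deviate together (correlations from -0.23 to 0.31, over 0.1 in 6 of 24 pairs), and 4 of 16 libraries correlated best with their own number. A fit with the replicate block gave 467 calls, 261 higher (55.9%, against 64.5% as reported) and 206 lower, and a replicate block within each strain gave 284. Of 66 called named genes, 30 were called under all 25 alternatives, 36 lost the call under at least 1, and none changed direction. No fragment counts were used, so the depth behind low values such as those of Cyp2j11 is unknown.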

Other observations

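Further enzymes with a called higher response were picked after their values were seen, so their direction is fixed by the choice. Enzymes were called lower too, such as Elovl6, an elongase of fatty acids (-0.48, limma, adjusted p = 0.0293). Gldc, the decarboxylase of glycine cleavage, rose from at most 0.204 FPKM in oil to 2.93, 3.48, 2.85 and 3.58 in ePRAoe P4 and 10.5, 9.90, 12.9 and 9.26 in ePRBoe P4 (difference 1.43, SE 0.13, limma, adjusted p = 0.000189). Acss3, an acyl-CoA synthetase of short chains, fell in ePRAoe to 2.90, 2.21, 3.10 and 1.98 FPKM and read 6.37, 5.26, 9.62 and 7.57 in ePRBoe P4 (difference 1.23, SE 0.23, adjusted p = 0.0147). The P4 groups did not overlap for these genes.

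Bckdha, a subunit of the enzyme that oxidizes branched-chain keto acids, fell in both strains, to 21.4, 16.3, 17.2 and 15.8 FPKM in ePRAoe and 29.1, 27.7, 23.6 and 25.0 in ePRBoe from between 45.3 and 53.5 in oil (difference 0.65, SE 0.12, limma, adjusted p = 0.0124). Acot7, an acyl-CoA thioesterase, rose to 141, 120, 112 and 105 FPKM in ePRAoe P4 and 206, 241, 360 and 192 in ePRBoe P4 (difference 0.97, SE 0.21, adjusted p = 0.0297). The oil values of Acot7 ran from 14.8 to 18.1 FPKM over both strains, and its difference without ePRBoe P4 replicate 3 (360 FPKM) was 0.78 (limma, adjusted p = 0.00755).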
